A study of Mus musculus with 16 samples.

Results

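Mouse embryonic stem (ES) cells grown on PA6 stromal cells were compared after 7 days with BMP4 in the medium and without any growth factor (-GFs), on 2 arrays of each kind. The comparison takes every probe with a detection p-value under 0.05 on both arrays of at least 1 of these groups. This rule retained 19183 of the 45281 probes, or 13724 of the 14829 genes measured anywhere in the series. The rule uses detection and not the direction or size of a change, so a gene seen under BMP4 alone is a member in the same way as a gene seen under both conditions.

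In the study, co-cultures and PA6 mono-cultures were profiled on 16 Illumina MouseWG-6 arrays to find the genes behind BMP4-driven and FGF2-driven endothelial differentiation of ES cells. The -GFs group held ES cells and PA6 cells in serum-free medium, and the BMP4 group held the same cells with recombinant BMP4, at 10 ng/ml per the labels, for 3 of the 7 days. A further 3 co-cultures with FGF2 at 20 ng/ml, handled alike, entered the statistical model and are given beside the results. PA6 mono-cultures with each medium, on 3 arrays each, show the stroma alone. All co-cultures shared the same ES line, in which EGFP is knocked in at the promoter of the tau gene, and the same PA6 cells, which are stroma established from the bone marrow of mice. ES cells and stroma were harvested together, so every co-culture value mixes both, and fewer cells of a type and less RNA per cell cannot be told apart. The labels describe biological replicates with a well of each condition but give no clone or culture date.

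BMP4 is a secreted ligand of the TGF-beta superfamily. It binds type I and type II serine/threonine kinase receptors, which phosphorylate SMAD1, SMAD5 and SMAD8, and these enter the nucleus with SMAD4 and switch on genes such as the ID family of helix-loop-helix inhibitors. In the early ectoderm BMP signalling favours epidermis over neural tissue, while secreted antagonists such as noggin and chordin keep it low where the neural plate forms. BMP4 is also used on ES cells to obtain mesoderm and blood vessel cells, and together with LIF it helps mouse ES cells to stay undifferentiated.

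The share of probes detected was 40.5% and 43.7% on the -GFs arrays and 44.2% and 45.8% on the BMP4 arrays. Both BMP4 arrays thus detected more, and the part of this in the counts below was not tested. Log2 intensities correlated at 0.979 within each group and at 0.951 to 0.964 between BMP4 and -GFs arrays. Neural and pluripotent transcripts were present in both groups. The progenitor genes NES and SOX2, the neuronal genes DCX and STMN2 and the pluripotency genes POU5F1 and NANOG were detected on all 4 arrays. Among the other fixed neural markers, PAX6 was detected on none of the 4. SOX1 was detected on 1 -GFs array and no BMP4 array, and TUBB3 on 1 BMP4 array and no -GFs array. Of the fixed endothelial markers, TEK and PECAM1 were detected on both BMP4 arrays and are members. None of the others, CDH5, ICAM2, TIE1 and KDR, was detected on both arrays of either group, and they are therefore not members. CDH5, ICAM2 and TIE1 were each detected on 1 BMP4 array and no -GFs array, and KDR on 1 array of each group. Among the members 11861 genes were detected on all 4 arrays, 551 on both BMP4 arrays and neither -GFs array, and 165 the other way round.

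BMP4 altered 556 member genes at an adjusted p under 0.1 and a log2 change over 1 in size, the limits used throughout for a called gene, and these were 3.75% of the genes tested. A rise was called for 338 genes (2.28%) and a fall for 218 (1.47%). The BMP4 and -GFs arrays did not overlap for any of the called genes, while 47.6% of all member genes showed no overlap. Rises were the larger changes. Of the called rises 142 exceeded 2 on the log2 scale, 69 exceeded 3 and 27 exceeded 4, with a median of 1.84, whereas 30 falls exceeded 2 in size and 0 exceeded 3, with a median of -1.48. The rises also began from low signals, with a median log2 intensity of 6.85 on the -GFs arrays against 9.43 for the falls and 9.66 for all members. For 113 of the 338 risen genes no signal above background was measured on either -GFs array, so that for these genes the log2 change has no true starting level and a bound is given, written as at least so many fold. A gene at background without factor entered the comparison through the BMP4 arrays alone and could not be called lower. The count of called genes was 102 without BMP4 replicate 1, 330 without BMP4 replicate 2, 301 without -GFs replicate 1 and 226 without -GFs replicate 2. Rises outnumbered falls in these fits except without -GFs replicate 1, with 128 rises and 173 falls, and with detection required on all 4 arrays the numbers were near equal, at 164 and 154.

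**Figure D1:**
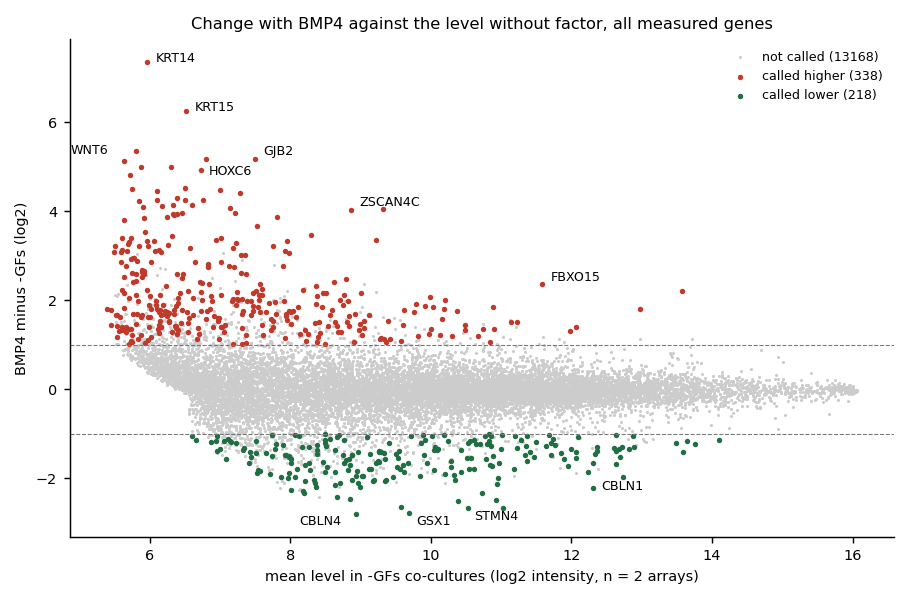
Log2 change with BMP4 (y axis) against the mean log2 intensity of the 2 -GFs arrays (x axis) for the member genes, with called rises, called falls and the other genes in separate colours and dashed lines at a log2 change of 1 in either direction. The called rises reach far higher than the called falls reach low, and many of them start near the background at the left.

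The same BMP4 arrays set against the 3 FGF2 arrays gave 214 called genes (1.44% of those tested), of which 112 were higher with BMP4 (0.755%) and 102 lower (0.688%). With arrays scaled to a common median, the share of higher genes among the calls went from 52.3% to 63.6%. It was 43.9% without either -GFs array and 38.4% with runs of neighbouring file columns as a block, so which direction held the majority depended on the setting. Of the 338 genes that rose with BMP4 over -GFs, 73 were also higher than with FGF2 and 9 were lower. Both comparisons share the BMP4 arrays, so they are given side by side for each gene below. The counts against FGF2 were 39 without BMP4 replicate 2 and 63, 50 and 58 without FGF2 replicates 1, 2 and 3.

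The 15 largest rises lay between 4.41 and 7.35 on the log2 scale, and the 15 largest falls between -2.80 and -2.20. The first set was led by epidermal genes. KRT14, the keratin of basal keratinocytes, had a log2 intensity of 5.66 and 6.27 on the -GFs arrays and of 14.15 and 12.47 on the BMP4 arrays. It was at background on both -GFs arrays, and the FGF2 arrays, at 8.45, 5.60 and 6.26, stayed far below the BMP4 arrays. The log2 change was 7.35 ± 0.93 (SE, limma adjusted p = 0.0174), at least 110-fold, and 6.51 without BMP4 replicate 1, when the call was lost. KRT15, a second basal keratin, stood at 6.22 and 6.83 without factor and at 13.13 and 12.42 with BMP4. The other rises of this set comprised the connexins GJB2 and GJB6, the epithelial chemokine CXCL14, the epidermal transcription factor TRP63, the homeobox genes HOXC6 and HOXC9, the WNT ligand WNT6, the DKK co-receptor KREMEN2, the 2-cell stage gene TCSTV1, 3 gene models (LOC544808, LOC548597 and LOC212386) and the transcript 4631405K08RIK, which the mouse gene table lists as Mir205hg. Of the 15, 7 were undetected on both -GFs arrays, 10 were undetected on all 9 PA6 arrays and 11 were also called higher with BMP4 than with FGF2. The 4 exceptions were TCSTV1 and the 3 gene models, which were of similar brightness with FGF2.

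**Figure D2:**
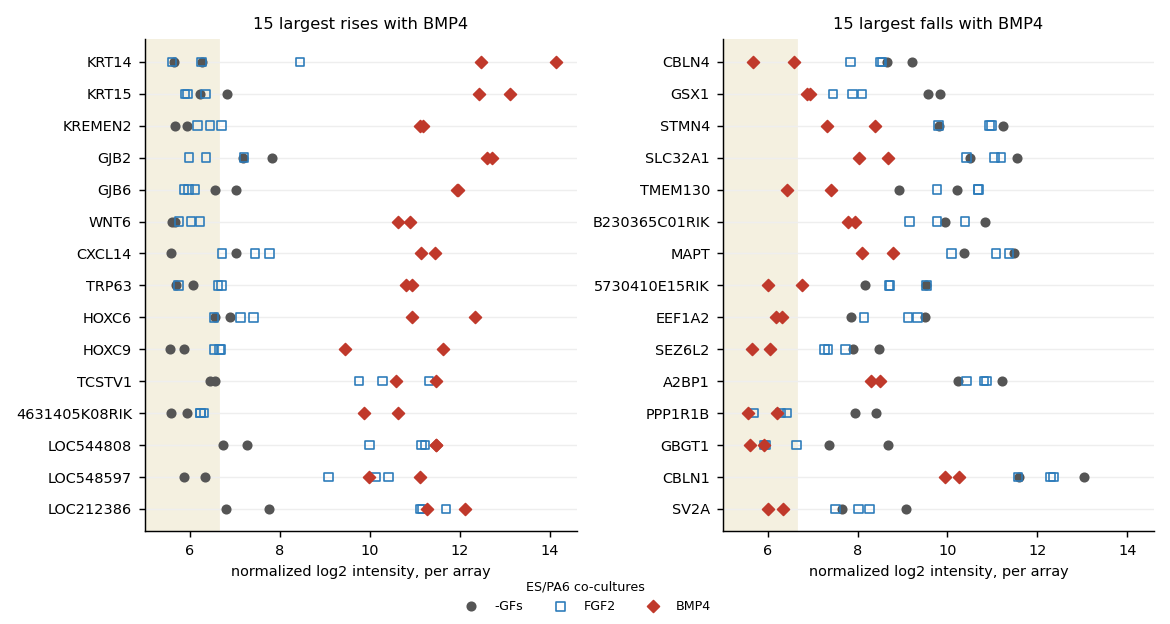
Log2 intensity (x axis) on each co-culture array for the 15 largest rises and the 15 largest falls with BMP4, with grey circles for -GFs, open blue squares for FGF2 and red diamonds for BMP4, and shading below the highest detection level of the 4 compared arrays. Red diamonds stand far to the right of grey circles for the rises, and the 4 genes where blue squares join the red ones are TCSTV1, LOC544808, LOC548597 and LOC212386.

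Among the 15 largest falls, 11 were undetected on all PA6 arrays and 8 were also called lower than with FGF2. CBLN4, a secreted organiser of synapses, was at 9.20 and 8.66 without factor and at 5.68 and 6.58 with BMP4, where 1 of the 2 arrays detected it. Its log2 change was -2.80 ± 0.38 (adjusted p = 0.0216), and -2.35 and no longer called without BMP4 replicate 1. GSX1, a homeobox gene of neural progenitors that give rise to interneurons, was at 9.56 and 9.83 without factor and at 6.87 and 6.94 with BMP4, a change of -2.79 ± 0.25 (adjusted p = 0.00731). This fall was called whichever array was left out. A2BP1, the neuronal splicing regulator now named RBFOX1, was at 10.23 and 11.21 without factor and at 8.30 and 8.49 with BMP4, a 5.02-fold fall (adjusted p = 0.026) that measured -2.23 and missed the limit without BMP4 replicate 1. SEZ6L2, a membrane protein of neurons, was detected on neither BMP4 array and fell at least 3.60-fold (adjusted p = 0.0144).

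Keratins are the filament proteins of epithelia, with different members in basal, upper and simple layers. Of the 5 stratified keratins measured, 3 rose (KRT14, KRT15 and KRT17) and 0 fell. The median log2 change was 1.99, or 1.54 with undetected genes at their bound, against -0.0025 over all members. KRT14, KRT17 and KRT5 were undetected on both -GFs arrays and entered through the BMP4 arrays alone, which fixed their direction. The count of 3 was 0 to 3 over the alternative settings. KRT5, the usual partner of KRT14 in basal cells, had log2 intensities of 6.03 and 5.75 without factor and of 7.13 and 6.36 with BMP4. It was detected on the BMP4 arrays alone and its change of 0.85 ± 0.32 did not pass (adjusted p = 0.265). KRT10, a keratin of the upper epidermal layers, was at 11.26 and 11.18 without factor and at 11.07 and 11.24 with BMP4, overlapping. KRT17, a keratin of skin appendages and stressed epidermis, was at 6.13 and 6.04 without factor and at 8.30 and 7.84 with BMP4, at least 2.90-fold higher (adjusted p = 0.0132). The FGF2 arrays held KRT17 at 7.80, 8.18 and 7.89, within the BMP4 range or next to it, in contrast to KRT14 and KRT15.

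Of 5 simple epithelial keratins 2 rose, KRT7 and KRT18, with a median log2 change of 1.13. KRT7 went from 6.79 and 6.99 to 8.50 and 9.22, a 3.93-fold rise (adjusted p = 0.021). KRT18 went from 9.42 and 9.25 to 10.35 and 10.59, a 2.19-fold rise (adjusted p = 0.0398) that was lost without any 1 of the 4 arrays, when its log2 change lay between 1.01 and 1.26. Its partner KRT8, at 10.63 and 10.20 against 10.99 and 11.92, changed by 1.04 ± 0.37 and did not pass (adjusted p = 0.245). The change of KRT23 was 2.27 ± 0.71 and did not pass either (adjusted p = 0.189), from 7.32 and 6.68 to 9.59 and 8.94. KRT19 was at 9.62 and 8.51 without factor and at 8.80 and 8.78 with BMP4, overlapping. In the comparison of BMP4 with FGF2, KRT7, KRT8 and KRT18 were all called higher, by 1.54, 1.69 and 1.40 on the log2 scale.

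Genes of the suprabasal and squamous programme were partly present. This list of 6 measured genes was drawn up after values had been seen and is a description. KRTDAP, a secreted protein of differentiating keratinocytes, rose from 5.59 and 5.79 to 9.51 and 8.40, at least 5.35-fold (adjusted p = 0.0175). SFN, the 14-3-3 protein of epithelial cells, rose from 5.57 and 5.45 to 9.21 and 8.24, at least 4.55-fold (adjusted p = 0.0129). Both were detected on both BMP4 arrays and on neither -GFs array, and both were also called higher than with FGF2. The cornified envelope gene LOR, at 8.13 and 7.74 without factor and at 9.43 and 7.82 with BMP4, was not called.

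Of 23 measured epithelial junction and basement membrane genes 12 rose and 0 fell. The mean was higher with BMP4 for all 23, and the median log2 change was 1.65. The arrays did not overlap for 18, against 47.6% of all member genes. Members undetected on both -GFs arrays, such as LAMA3, COL17A1, DSP, PKP3 and CDH3, entered through the BMP4 arrays alone, which fixed their direction. Over the alternative settings the count of 12 was 4 to 14. LAMA3, a chain of the laminin that anchors epidermis, was at 5.68 and 5.59 without factor and at 9.63 and 9.23 with BMP4, at least 7.42-fold higher (adjusted p = 0.0012). The FGF2 arrays held LAMA3 between, at 7.52, 7.86 and 7.64, and BMP4 exceeded FGF2 by 1.75 on the log2 scale (adjusted p = 0.0237). COL17A1, the transmembrane collagen of hemidesmosomes, rose from 5.69 and 5.79 to 9.31 and 8.96, at least 6.05-fold (adjusted p = 0.00925), and was 3.15 above FGF2 (adjusted p = 0.0134). DSP, the plakin that ties desmosomes to keratin filaments, rose from 5.78 and 5.68 to 8.72 and 8.57, at least 4.33-fold (adjusted p = 0.00141).

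PKP3, a desmosomal plaque protein, rose at least 5.04-fold (adjusted p = 0.011) from 6.32 and 5.73 to 9.22 and 8.52. ITGB4, the integrin subunit of hemidesmosomes, went from 6.85 and 7.45 to 11.85 and 10.61, a 16.9-fold rise (adjusted p = 0.0328). Its log2 change of 4.08 was 3.78, 4.38 and 3.46, and no longer called, without -GFs replicate 1, -GFs replicate 2 and BMP4 replicate 1. P-cadherin (CDH3) rose at least 6.56-fold on its brightest probe (adjusted p = 0.0103), while its other probes changed by 0.40 and -0.77 and did not pass, so the probes of this gene disagree. E-cadherin (CDH1), at 9.66 and 8.63 without factor and at 11.20 and 10.39 with BMP4, changed by 1.65 ± 0.41 and just missed the limit (adjusted p = 0.107), and its FGF2 values of 11.71, 11.63 and 11.21 were the highest. The count of 12 called members was 9 without -GFs replicate 2 and 6 without BMP4 replicate 1.

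The connexins, channel proteins of gap junctions, split sharply. GJB2 and GJB6 encode connexins 26 and 30, which are co-expressed in epidermis and in the inner ear. GJB2 stood at 7.18 and 7.82 without factor and at 12.60 and 12.73 with BMP4, a 35.9-fold rise (adjusted p = 0.0045), and the remaining probes of the gene rose too, by 4.76 and 3.45. GJB6 stood at 6.57 and 7.03 without factor, where 1 of 2 arrays detected it, and at 11.97 and 11.95 with BMP4, a 35.8-fold rise (adjusted p = 0.000244). The FGF2 arrays, at 6.36, 5.98 and 7.21 for GJB2 and at 5.97, 6.12 and 5.88 for GJB6, were at or below the values without factor. GJA1, a connexin of stroma and many other cells, changed by 0.17 and GJA7 by 0.01, and neither passed.

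Several of the genes with the clearest changes are neighbours on a chromosome in the mouse gene table (GRCm38.p6 order, used for names and order alone). GJB2 and GJB6 lie next to each other among the 11588 member genes placed, as do WNT6 and WNT10A, KRT14 and KRT17, HOXC9 and HOXC6, CXCL14 and TGFBI, TCFAP2C and BMP7, and the 2-cell genes TCSTV1, AF067061 and TCSTV3 with 1 gene model between them. In all 23 adjacent pairs were both called higher and 4 both called lower. A risen neighbour stood beside 16.7% of the placed risen genes and 4.17% of the genes not called. A fallen neighbour stood beside 4.19% of the placed fallen genes and 3.24% of the genes not called, which is a near share. With 264 of the 338 risen genes placed, these shares are a description.

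The proximal promoters of both connexins, of KRT14 and WNT6 and of the stable fall GSX1 are printed below from RefSeq (GRCm38.p6). Each runs from 250 bases before to 50 after the start site, 5′ to 3′ on the strand of the gene. Their part in these changes was not tested. Capitals mark letters of the SMAD motifs GGCGCC and GTCTG or CAGAC, the TFAP2 motif GCCNNNGGC and the SNAI-type E-box CACCTG or CAGGTG, searched on both strands.

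Gjb2, chr14:57104653-57104952, minus strand: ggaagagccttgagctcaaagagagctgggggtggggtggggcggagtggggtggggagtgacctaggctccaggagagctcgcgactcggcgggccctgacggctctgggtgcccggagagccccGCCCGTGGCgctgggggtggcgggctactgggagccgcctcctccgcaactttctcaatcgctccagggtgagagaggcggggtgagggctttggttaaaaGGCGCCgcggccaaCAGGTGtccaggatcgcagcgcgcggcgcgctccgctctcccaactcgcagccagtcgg

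Gjb6, chr14:57133562-57133861, minus strand: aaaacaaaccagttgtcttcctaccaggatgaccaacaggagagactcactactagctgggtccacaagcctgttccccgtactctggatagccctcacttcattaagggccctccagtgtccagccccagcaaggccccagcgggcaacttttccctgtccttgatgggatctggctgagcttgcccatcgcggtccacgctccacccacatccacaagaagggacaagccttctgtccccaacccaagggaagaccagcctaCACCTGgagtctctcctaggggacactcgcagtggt

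Krt14, chr11:100205981-100206280, minus strand: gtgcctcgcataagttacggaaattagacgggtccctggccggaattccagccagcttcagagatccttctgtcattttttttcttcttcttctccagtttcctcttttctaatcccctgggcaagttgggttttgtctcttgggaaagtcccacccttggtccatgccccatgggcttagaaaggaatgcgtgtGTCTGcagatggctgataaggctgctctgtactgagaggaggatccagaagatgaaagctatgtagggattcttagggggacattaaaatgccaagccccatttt

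Wnt6, chr1:74771642-74771941, plus strand: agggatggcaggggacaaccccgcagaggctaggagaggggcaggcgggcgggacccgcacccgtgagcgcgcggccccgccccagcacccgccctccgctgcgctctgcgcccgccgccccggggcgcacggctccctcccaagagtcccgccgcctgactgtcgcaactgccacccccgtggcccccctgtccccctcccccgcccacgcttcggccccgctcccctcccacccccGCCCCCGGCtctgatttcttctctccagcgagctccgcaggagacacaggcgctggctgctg

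Gsx1, chr5:147188446-147188745, plus strand: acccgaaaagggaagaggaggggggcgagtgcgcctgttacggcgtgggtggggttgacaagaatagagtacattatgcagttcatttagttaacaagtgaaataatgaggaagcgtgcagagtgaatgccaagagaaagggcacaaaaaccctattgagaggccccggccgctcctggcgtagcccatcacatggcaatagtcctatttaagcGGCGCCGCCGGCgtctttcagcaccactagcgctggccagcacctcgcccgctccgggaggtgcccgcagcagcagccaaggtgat

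GJB2 held 1 GGCGCC, 1 GCCNNNGGC and 1 CAGGTG, GJB6 held 1 CACCTG, KRT14 held 1 GTCTG and WNT6 held 1 GCCNNNGGC. In GSX1, which fell, 1 GGCGCC and 1 GCCNNNGGC overlap in a single run of capitals. Over all 32851 promoters of that table, 11.9% held GGCGCC, 49.6% held GTCTG or CAGAC, 16.6% held GCCNNNGGC and 20.2% held the E-box. Over the 9193 promoters of member genes the shares were 21.9%, 47.4%, 26.0% and 18.0%. Each match is therefore a description of these windows. Since 54.1% of the risen and 62.8% of the fallen genes have a promoter in the table, a comparison of motif shares between these sets is void and is not given.

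Surface ectoderm transcription factors, which set up the epidermis, were higher with BMP4 in all 14 measured cases. A rise was called for 7 and a fall for 0, with a median log2 change of 1.72. Members undetected on both -GFs arrays, TRP63 among them, entered through the BMP4 arrays alone, which fixed their direction. TRP63, the p63 factor that stratified epithelia depend on, was at 6.07 and 5.70 without factor and at 10.95 and 10.81 with BMP4, at least 20.3-fold higher (adjusted p = 0.00251), and was 4.51 above FGF2 (adjusted p = 0.00292). TCFAP2C, an AP-2 factor of ectoderm and trophoblast, went from 10.00 and 10.40 to 12.42 and 12.01, a 4.04-fold rise (adjusted p = 0.013), and was as high with FGF2, at 12.33, 12.54 and 12.49. TCFAP2A, a related AP-2 factor, was bright in both groups and changed by 0.40 ± 0.28 (adjusted p = 0.60). GRHL2, a factor of epithelial barriers, changed by 2.06 ± 0.60 and did not pass (adjusted p = 0.159). Without BMP4 replicate 1 the list held 3 called genes, and 4 without -GFs replicate 2.

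HOX genes moved in both directions along the clusters. Of 19 measured, 3 rose and 2 fell. HOXC6, active from the thoracic level, was at 6.89 and 6.56 without factor and at 10.95 and 12.33 with BMP4, a 30.2-fold rise (adjusted p = 0.00761). HOXC9 was at 5.57 and 5.88 without factor and at 9.45 and 11.63 with BMP4, at least 16-fold higher (adjusted p = 0.017). Both were also called above FGF2, by 4.61 and 3.90, and both were brighter on BMP4 replicate 2 than on replicate 1, in contrast to KRT14. The fallen members were the anterior hindbrain genes HOXA2 and HOXB2, with log2 changes of -1.30 (adjusted p = 0.0316) and -1.06 (adjusted p = 0.0858), and every FGF2 array was lower than the BMP4 arrays for both. HOXA5 rose by 1.97 (adjusted p = 0.0781). The HOXA5 change was 1.79, 2.16, 1.97 and 1.36, and not called, without -GFs replicate 1, -GFs replicate 2, FGF2 replicate 3 and BMP4 replicate 2. Neither fall was called without a -GFs array or without BMP4 replicate 1, when HOXA2 changed by -1.41 to -1.11 and HOXB2 by -1.19 to -0.93. Without FGF2 replicate 3 or BMP4 replicate 2 the HOXB2 call was lost as well.

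The BMP pathway itself showed small changes at the harvest, some days after the factor had been withdrawn. Of 10 measured BMP targets 3 rose and 0 fell, with a median log2 change of 0.50. Among the ID genes, which SMADs switch on directly, ID3 went from 9.03 and 8.93 to 10.14 and 10.48, a change of 1.33 ± 0.29 (adjusted p = 0.0755), while ID1 changed by 0.56 and ID2 by -0.53 and neither passed. The inhibitory SMAD6 and the homeobox target MSX1 changed by 0.40 and 0.56 and did not pass. GATA3 and TBX3, transcription factors downstream of BMP in ectoderm, rose by 1.58 (adjusted p = 0.041) and 2.38 (adjusted p = 0.0895). No target was called when any 1 of the 4 compared arrays was left out, with changes of 1.15 to 1.5 for ID3, 1.41 to 1.75 for GATA3 and 1.97 to 2.78 for TBX3. ID3 was also lost without FGF2 replicate 2, and TBX3 without FGF2 replicate 3. With runs of neighbouring file columns as a block 0 of the 10 targets were called.

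Ligands, receptors and antagonists of the pathway were mostly unmoved by the test, with 1 rise and 1 fall in 14. Endogenous BMP4 transcript was at 8.47 and 9.53 without factor and at 11.10 and 10.38 with BMP4, where the groups did not overlap, yet its change of 1.74 ± 0.44 did not pass (adjusted p = 0.115). It was equally bright with FGF2, at 10.08, 10.82 and 10.89. BMP7, a ligand of epidermis and many epithelia, rose by 1.24 (adjusted p = 0.0943), and BMPR1B, a type I receptor, fell by 1.35 (adjusted p = 0.0821). Both calls were lost without any 1 of the 4 arrays, when BMP7 changed by 1.03 to 1.45 and BMPR1B by -1.56 to -1.14, and BMP7 also without FGF2 replicate 2 and BMPR1B without FGF2 replicate 3. The antagonists NOG and FST changed by -0.22 and -0.17 and did not pass.

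WNT ligands are secreted glycoproteins that act through Frizzled receptors. Of 11 measured, 4 rose (WNT6, WNT10A, WNT4 and WNT3) and 1 fell (WNT7B), and 5 were called higher with BMP4 than with FGF2. WNT10A was at 5.68 and 5.53 without factor and at 9.29 and 8.71 with BMP4, at least 5.52-fold higher (adjusted p = 0.00356), and like its neighbour WNT6 it was undetected on all FGF2 arrays. WNT3A, the ligand outside the named set with values singled out after they were seen, was at 9.28 and 8.97 without factor and at 9.58 and 10.34 with BMP4, and its FGF2 values of 7.57, 6.25 and 7.74 lay below both. WNT7B fell from 11.36 and 12.06 to 10.31 and 10.14 (log2 change -1.48, adjusted p = 0.0641), and was not called without -GFs replicate 2, BMP4 replicate 1 or BMP4 replicate 2, at -1.14, -1.57 and -1.40. FZD6 was the 1 receptor of 13 to rise, a call lost without -GFs replicate 2 (1.86). Of 15 WNT antagonists and feedback targets 2 rose, KREMEN2 and SP5, with a median log2 change of 0.38. AXIN2 changed by 0.35 and LEF1 by 0.65, neither called, while SP5 rose by 2.12 (adjusted p = 0.079), a call lost without -GFs replicate 1, -GFs replicate 2, FGF2 replicate 2 and BMP4 replicate 1, at 2.52, 1.72, 2.12 and 1.58. The count of 4 risen ligands was 2 without BMP4 replicate 1, when WNT4 changed by 2.61 and WNT3 by 2.11, and the WNT3 call was also lost without either -GFs array, FGF2 replicate 1 or BMP4 replicate 2, at 2.00 to 2.12.

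Pluripotency genes were higher with BMP4 than without factor in 14 of 16 cases, with a median log2 change of 1.16. A rise was called for 4, which were NANOG, ZFP42, ESRRB and FBXO15. NANOG, a core pluripotency factor, went from 12.10 and 11.86 to 13.58 and 12.99 (log2 change 1.31, adjusted p = 0.0529). FBXO15, a gene marking undifferentiated ES cells, went from 11.37 and 11.80 to 14.35 and 13.57 (log2 change 2.37, adjusted p = 0.0266). POU5F1 was at 10.72 and 10.40 without factor and at 12.53 and 10.90 with BMP4. It was not called (1.15 ± 0.47, adjusted p = 0.318), and the BMP4 arrays differed from each other by more than replicate 2 differed from the -GFs arrays. Replicate 1 exceeded replicate 2 for 15 of the 16 genes. All FGF2 arrays were brighter still for NANOG, POU5F1, ZFP42 and ESRRB, and ESRRB was called lower with BMP4 than with FGF2 (-1.51, adjusted p = 0.0892). The 4 calls became 0 without -GFs replicate 1 or BMP4 replicate 1, 1 without -GFs replicate 2 and 7 without BMP4 replicate 2. In those fits the log2 change of NANOG was 1.43, 1.01 and 1.19 without -GFs replicate 1, BMP4 replicate 1 and -GFs replicate 2, and FBXO15 was 2.16 and 1.98, not called, without -GFs replicate 1 and BMP4 replicate 1. ZFP42 and ESRRB were not called without either -GFs array, FGF2 replicate 1 or 3 or BMP4 replicate 1, at 1.30 to 2.13 and at 0.89 to 1.42, nor ESRRB without FGF2 replicate 2.

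Genes known from the mouse 2-cell embryo are expressed by a few cells of an ES culture at a time. This list and the germline list were drawn up after values had been seen, with genes among the largest rises in view, so their medians are no measure against the other lists. Of 10 measured 2-cell genes 8 rose and 0 fell, with a median log2 change of 3.40. ZSCAN4C, a DNA-binding protein that defines this state, was at 8.64 and 9.09 without factor and at 13.17 and 12.60 with BMP4, a 16.2-fold rise (adjusted p = 0.00463). TCSTV1 was at 6.55 and 6.46 without factor, where 1 of 2 arrays detected it, and at 11.48 and 10.59 with BMP4. Its 23.1-fold rise (adjusted p = 0.0126) thus starts near background. TMEM92, likewise detected on 1 -GFs array, went from 6.05 and 6.95 to 10.81 and 10.71, a log2 change of 4.25 ± 0.39 (adjusted p = 0.00731). The FGF2 arrays were of similar brightness, at 12.26, 13.01 and 12.58 for ZSCAN4C, at 9.76, 11.32 and 10.28 for TCSTV1 and at 9.72, 10.56 and 10.62 for TMEM92. BMP4 differed from FGF2 by a median of 0.37 over the 10 genes and 0 were called. Several of these genes have near-identical copies that a probe may not tell apart, so the copy named is uncertain. The count was 4 without BMP4 replicate 1.

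Germline genes were also higher with both factors than without. Of 13 measured 10 rose over -GFs, with a median of 1.88, while the median difference from FGF2 was -0.65 and PIWIL2, of the piRNA pathway, was called lower with BMP4 than with FGF2 (-1.22, adjusted p = 0.0493). DAZL, an RNA-binding protein of germ cells, was at 8.17 and 7.64 without factor, at 10.85 and 10.47 with BMP4 and at 11.31, 12.25 and 10.87 with FGF2. Its 6.77-fold rise (adjusted p = 0.0328) was not called without -GFs replicate 2 or BMP4 replicate 1, at 2.49 and 2.57 on the log2 scale. TAF7L, a germ cell form of a general transcription factor subunit, rose by 2.59 (adjusted p = 0.0262), and by 2.52, not called, without BMP4 replicate 1. The count of 10 was 3, 4, 0 and 4 without -GFs replicate 1, -GFs replicate 2, BMP4 replicate 1 and BMP4 replicate 2.

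**Figure D3:**
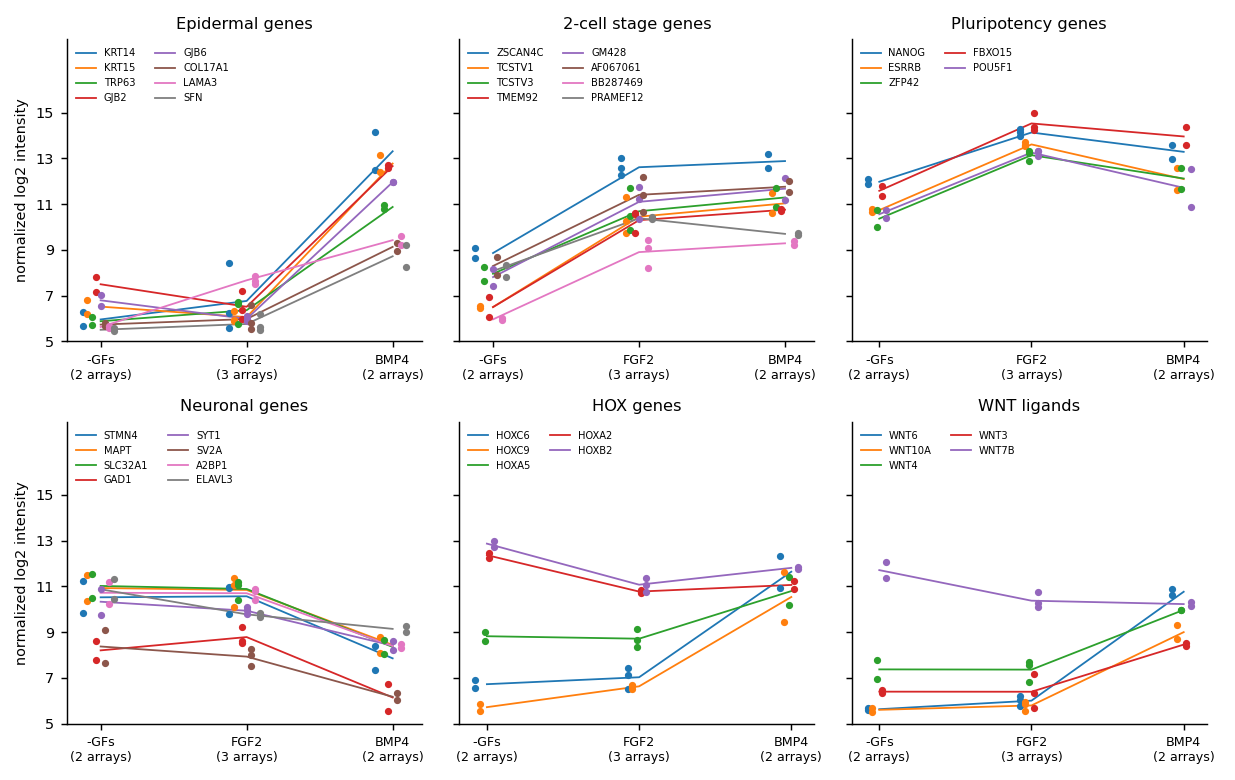
Log2 intensity (y axis) of selected genes in 6 panels (epidermal, 2-cell stage, pluripotency, neuronal, HOX and WNT ligand genes) on each array of the -GFs, FGF2 and BMP4 co-cultures (x axis), with points for arrays and lines joining group means. Epidermal genes are highest with BMP4, most 2-cell genes are of similar height with both factors, pluripotency genes are highest with FGF2, and neuronal genes are lowest with BMP4.

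Neural progenitor genes were lower with BMP4 in 10 of 12 cases, with a median log2 change of -0.77. HES5, a Notch target of progenitors, was at 12.70 and 12.57 without factor and at 11.12 and 11.39 with BMP4 (log2 change -1.38, adjusted p = 0.0228; -1.25 and not called without BMP4 replicate 1). It was lower again with FGF2, at 10.56, 10.40 and 10.62. SOX21 fell by 1.29 (adjusted p = 0.0402) and was not called without any 1 of the 4 arrays, at -1.45 to -1.14. SOX2 and NES changed by -0.43 and -0.40 and did not pass, and ZIC4, a zinc finger gene of the dorsal neural tube, rose by 1.87 (adjusted p = 0.0724). The ZIC4 call was lost without any 1 of the 4 arrays or without FGF2 replicate 1, at 1.43 to 2.32. Among 12 proneural and Notch genes 1 fell, the Notch modifier MFNG (log2 change -1.13, adjusted p = 0.0915; -1.29 to -0.98 and not called without any 1 of the 4 arrays or FGF2 replicate 1), and among 11 dorsoventral patterning factors GSX1 alone fell. DLL1, a Notch ligand, changed by -0.96 and was not called.

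Of 17 measured neuronal differentiation genes 8 fell and 0 rose. The mean was lower with BMP4 for all 17, and the median log2 change was -1.33. MAPT, which encodes tau, was at 10.37 and 11.49 without factor and at 8.78 and 8.11 with BMP4, a 5.60-fold fall (adjusted p = 0.068). The FGF2 arrays, at 10.09, 11.37 and 11.07, overlapped with the -GFs arrays, and BMP4 was called lower than FGF2 as well (-2.40, adjusted p = 0.0967). This is the locus that carries EGFP in the ES line, and whether the probe reads the targeted allele was not tested. STMN4, a stathmin of neurons, was at 9.82 and 11.23 without factor and at 8.38 and 7.33 with BMP4 (log2 change -2.67, adjusted p = 0.0849). DCX, the microtubule protein of young neurons, was at 11.49 and 12.62 without factor and at 10.48 and 10.55 with BMP4 (log2 change -1.54, adjusted p = 0.0847). ELAVL3, a neuronal RNA-binding protein, was at 10.44 and 11.31 without factor and at 9.03 and 9.26 with BMP4 (log2 change -1.73, adjusted p = 0.0373).

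For all of these the groups did not overlap, but -GFs replicate 2 was the brighter of its pair. The count of 8 was 10 without -GFs replicate 1 and 0 without -GFs replicate 2, BMP4 replicate 1 or BMP4 replicate 2. In those 3 fits MAPT changed by -1.93, -2.82 and -2.15, STMN4 by -1.96, -3.19 and -2.14, DCX by -0.98, -1.51 and -1.58 and ELAVL3 by -1.30, -1.62 and -1.85. The MAPT, STMN4 and DCX calls were also lost without FGF2 replicate 3, and those of STMN4 and DCX without FGF2 replicate 2. STMN2, the most general of the neuronal markers, changed by -1.11 ± 0.35 and did not pass (adjusted p = 0.19).

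Genes of GABA neurons and of synaptic vesicles included several falls. These lists of 3 GABA neuron genes and 9 synaptic vesicle genes were drawn up after values had been seen. SLC32A1, the transporter that loads GABA into vesicles, was at 10.50 and 11.54 without factor and at 8.68 and 8.03 with BMP4, a 6.35-fold fall (adjusted p = 0.0316). GAD1, which makes GABA, was at 7.77 and 8.63 without factor and at 6.72 and 5.57 with BMP4, where 1 of 2 arrays detected it (log2 change -2.06, adjusted p = 0.0809). Both were also called lower than with FGF2, by -2.53 and -2.64. The third gene, DLX1, a homeobox gene of interneuron precursors, overlapped between groups and changed by 0.21 ± 0.37 (adjusted p = 0.883). All 9 synaptic vesicle genes were lower, 5 were called, and the median was -1.73. SV2A, a vesicle glycoprotein, was undetected on both BMP4 arrays and fell at least 4.08-fold (adjusted p = 0.071), and CPLX1, a complexin that holds vesicles ready for release, went from 10.05 and 10.04 to 8.06 and 8.42 (log2 change -1.80, adjusted p = 0.0316). Without -GFs replicate 2 or BMP4 replicate 1 neither list kept a call, with log2 changes of -2.15 and -2.99 for SLC32A1, -1.63 and -2.63 for GAD1, -1.48 and -2.35 for SV2A and -1.81 and -1.62 for CPLX1. The SLC32A1 and SV2A calls were also lost without BMP4 replicate 2, at -2.34 and -2.04, and the GAD1 call without any 1 of the other co-culture arrays, at -2.49 to -1.49. CPLX1 was also lost without -GFs replicate 1, at -1.80, and SV2A without FGF2 replicate 2 or 3, at -2.20.

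Endothelial genes, the subject of the study, had 3 rises in 17 measured and a median log2 change of 0.70. SOX17, a transcription factor of arterial endothelium and of endoderm, was at 5.89 and 5.79 without factor and at 7.85 and 7.78 with BMP4, at least 2.43-fold higher (adjusted p = 0.0109) and called higher than with FGF2 (1.23, adjusted p = 0.0633). The angiopoietin receptor TEK rose at least 3.28-fold (adjusted p = 0.026) and was brighter on all FGF2 arrays. PECAM1, an adhesion molecule that ES cells share with endothelium, was at 6.96 and 7.81 without factor and at 9.90 and 8.83 with BMP4 (log2 change 1.98, adjusted p = 0.088), below its FGF2 values of 10.49, 11.11 and 10.29. EMCN, singled out after its values were seen, was undetected on both -GFs arrays, and at 7.99 and 9.74 with BMP4 its change did not pass (adjusted p = 0.101). TEK was not called without -GFs replicate 2 or BMP4 replicate 1, at 1.91 and 2.08. PECAM1 was not called without -GFs replicates 1 or 2, FGF2 replicates 1 or 3 or BMP4 replicate 1, at 1.44 to 2.40. The list held 1 called gene in each of the fits without -GFs replicate 2 and without BMP4 replicate 1.

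Among mesenchymal and neural crest factors 3 of 13 rose. SNAI2, a repressor of epithelial genes that is also active in basal keratinocytes and crest, went from 8.53 and 8.40 to 10.48 and 10.77, a 4.48-fold rise (adjusted p = 0.00653) called whichever array was left out, and was above FGF2 by 1.29 (adjusted p = 0.0377). TWIST1 and ETS1 rose by 1.13 (adjusted p = 0.061) and 1.01 (adjusted p = 0.0905), and neither was called without any 1 of the 4 arrays, at 1.12 to 1.14 and at 0.74 to 1.28, nor ETS1 without any FGF2 array. SOX10 changed by -0.63 and did not pass. Of 9 mesoderm and endoderm genes SOX17 was the 1 called, and the mesoderm gene T overlapped between groups, at 9.80 and 9.21 without factor and at 9.66 and 7.16 with BMP4. Of 3 trophoblast genes TCFAP2C and GATA3 rose, both of which also stand in the surface ectoderm list.

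Other signalling pathways held few calls. FGFR3, a receptor of neural progenitors among other tissues, fell from 8.50 and 8.54 to 6.41 and 7.14 (log2 change -1.74, adjusted p = 0.0641) and was the 1 called gene among 14 of the FGF pathway. Without -GFs replicate 1, -GFs replicate 2 or BMP4 replicate 1 it changed by -1.76, -1.72 and -1.38 and was not called. Among 13 TGFB and Nodal genes TGFBI, an extracellular matrix protein induced by TGFB, rose by 2.07 (adjusted p = 0.0262; 1.84 and 1.66, not called, without -GFs replicate 2 and BMP4 replicate 1), and TGFB1 and TGFB2 changed by -0.58 and 1.0 and did not pass. Among 11 retinoic acid genes CYP26B1, an enzyme that degrades retinoic acid, went from 7.90 and 8.31 to 6.50 and 6.11 (log2 change -1.79, adjusted p = 0.0196), a fall called whichever array was left out, and STRA6, a receptor for retinol-binding protein, rose at least 2.11-fold (adjusted p = 0.0811). The STRA6 call was lost without any 1 of the 4 arrays or FGF2 replicate 3, at 1.16 to 1.43. None of 6 hedgehog genes was called, and SHH, at 9.98 and 9.92 without factor, was at 9.21 and 6.98 with BMP4.

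Markers of other cells gave these values. Of 17 stromal matrix and chemokine genes 15 were higher with BMP4 on average, 0 were called and the median log2 change was 0.23, and of 8 smooth muscle, 6 glial, 3 macrophage and blood and 18 cell cycle genes 0 were called as well. The cell cycle genes MKI67 and TOP2A changed by 0.04 and 0.10. Adipocyte genes, which PA6 cells can switch on, stood apart on 1 array. ADIPOQ was at 8.68 and 5.94 without factor and at 7.91 and 12.53 with BMP4, a difference within the spread of the arrays (2.91 ± 1.44, adjusted p = 0.415), and PPARG, the master factor of fat cells, was at 6.09 and 6.23 without factor and at 6.51 and 9.31 with BMP4. All 6 adipocyte genes measured were higher on average with BMP4, none passed, and their part in other results was not tested. In PA6 mono-cultures they changed by 0.74 to 4.36, with a median of 1.68, and none was called there either.

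**Figure D4:**
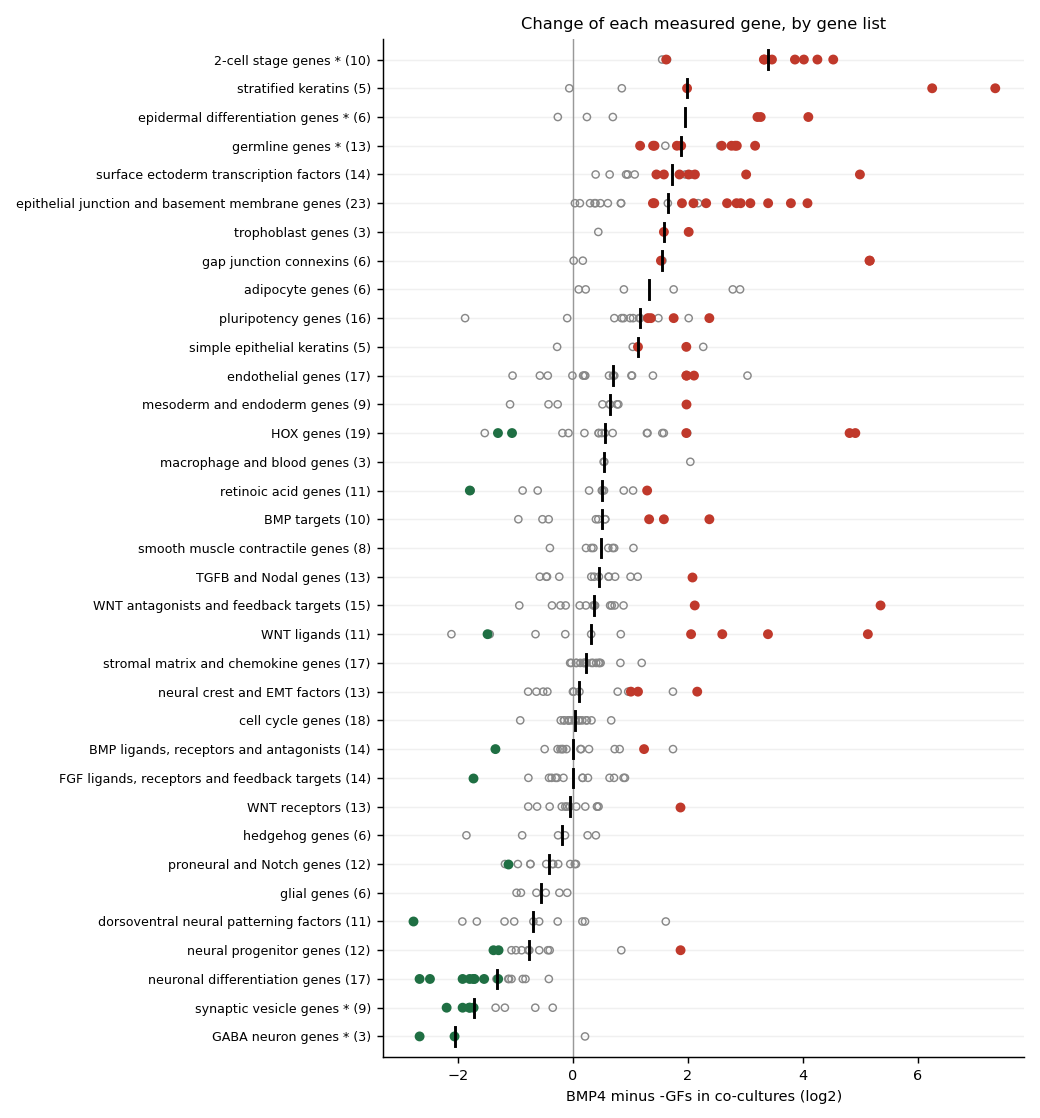
Log2 change with BMP4 (x axis) of each measured gene of each list (rows, with the number measured in brackets), filled red where called higher and green where called lower, with a black bar at the median and an asterisk on the lists drawn up after values were seen. The medians of the epithelial lists lie to the right of 0. Each keratin list and the epidermal differentiation list has 1 gene left of 0. The neuronal and synaptic lists lie to the left, and the medians of the stromal and cell cycle lists are 0.23 and 0.04.

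The mono-cultures show what BMP4 did to the stroma alone. In PA6 cells 0 genes were called (0% of those tested) by limma, with a lowest adjusted p of 0.136 and 1334 genes at an unadjusted p under 0.05, of which 41 were called in the co-cultures. With the PA6 BMP4 array of replicate 2 left out 5 genes were called, and 2 with that of replicate 1 left out. Of the 338 genes that rose in co-culture, 183 (54.1%) were undetected on all 9 PA6 arrays, as were 119 (54.6%) of the 218 that fell, against 9.54% of the members not called. KRT14, GJB2, WNT6, TCSTV1, ZSCAN4C, MAPT and SLC32A1 all belong to these genes without stromal signal. TRP63 does not, since 8 of 9 PA6 arrays detected its probe near background, where BMP4 changed it by -0.14.

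The difference between the BMP4 effects in both kinds of culture was tested directly over all 16 arrays, and 628 genes differed (4.23% of those tested), 387 of them with the larger value in co-culture (2.61%). With arrays scaled to a common median the share with the larger value in co-culture went from 61.6% to 77.4%. All 15 of the largest rises and 13 of the 15 largest falls were among the 628, and PA6 changes of the 15 largest rises lay between -0.33 and 0.47. Of the 338 rises 258 differed from the stroma, and of the 218 falls 141. The called genes, and the 15 largest of each kind, were picked by their change on the same co-culture arrays. Their place among the 628 is therefore no separate support. The count of 628 was 397 without BMP4 replicate 1 of the co-cultures.

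**Figure D5:**
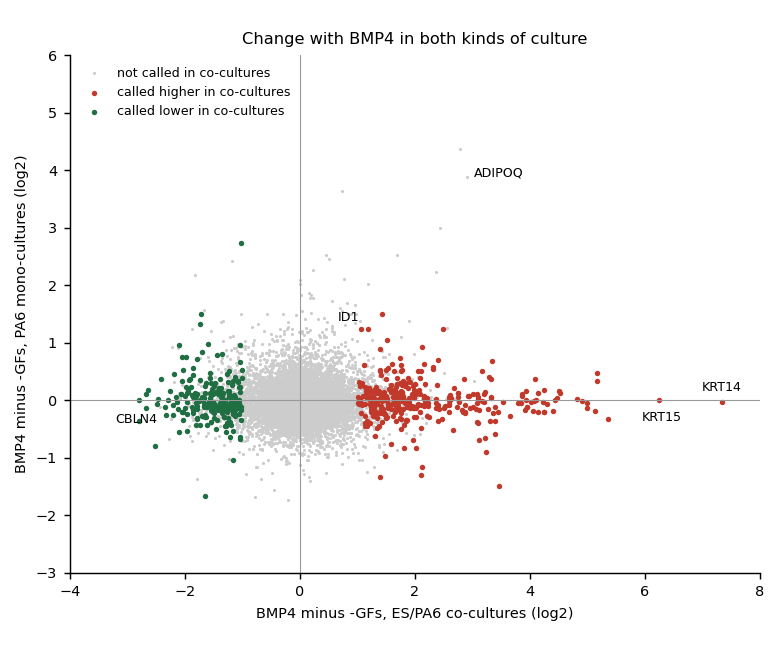
Log2 change with BMP4 in PA6 mono-culture (y axis) against the change in co-culture (x axis) for the member genes, with called rises in red and called falls in green. Most called genes lie far out along the x axis at PA6 changes near 0, and ADIPOQ is among the few that lie high on the y axis.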

How the data were processed

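Biotin-labelled RNA was hybridised to Illumina MouseWG-6 v2.0 BeadChips. The authors deposited for each of 16 arrays the average intensity of every probe, neither normalized nor background-corrected, as exported by GenomeStudio 2011.01, with a detection p-value per probe; the authors' own cubic spline normalization was not used here. From the deposited intensity values, neqc of limma 3.58.1 (R 4.3.3) estimated background from the detection p-values, added an offset of 16 and quantile-normalized all 16 arrays. All log2 intensities printed here are these normalized values.

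Probes detected at p under 0.05 on every array of at least 1 of the 6 groups were tested (20880 probes), and of several probes for a gene the one with the largest mean was taken. The 7 co-culture arrays were fitted with lmFit and eBayes, as were the 9 PA6 arrays, and the difference between cultures was taken from a fit of all 16. P-values were adjusted over all 14829 genes by Benjamini-Hochberg. They measure the spread of 2 arrays against 2, with the FGF2 arrays lending their spread, and precision is limited by how few arrays there are. A bound sets the mean of the brighter group against the lowest detected signal of the dimmer arrays. An exact permutation test of 2 arrays against 2 cannot pass and was not used. The script was tested on simulated data.

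Named were the 15 largest called rises and falls, key genes of each list, the called genes of each list with the largest changes and the called genes of smallest adjusted p. Other called list members were not named by the rule. The few other genes given were chosen after their values were seen. The members and the lists were chosen with earlier results of these data known. Alternatives were another limit on adjusted p, no minimum fold, median scaling, normalization over the co-cultures, fits of 4 or 16 arrays, no background correction, an offset of 50, detection in both groups, no filter on dim probes, detection at 0.01, every probe, an intensity trend, a replicate block, and each array left out. Deviations of arrays with the same label number correlated at -0.199 to 0.283, not above 0.1 in every pair, so the numbers were not taken to pair the arrays. Labels and the study's methods give different BMP4 doses, and the label's is printed. A few genes are not reported here.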

Additional observations from a re-analysis of the deposited data

Results flagged for a closer look

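By the interaction term of the limma fit, the effect of BMP4 in co-culture differed from that in PA6 mono-culture for 628 genes. Among the 30 genes with the largest changes in co-culture 28 differed. Those 30 were picked by their change on the same co-culture arrays, so this count is no separate support. Among the rises the difference was 7.38 on the log2 scale for KRT14 and 6.26 for KRT15, the basal keratins, and 5.14 for TRP63. The connexins GJB2 and GJB6 differed by 4.83 and 4.69, the homeobox genes HOXC6 and HOXC9 by 4.92 and 4.79, WNT6 by 5.32, KREMEN2 by 5.68 and CXCL14 by 5.04. TCSTV1 differed by 4.40, 4631405K08RIK by 4.35, and the gene models LOC212386, LOC548597 and LOC544808 by 4.59, 4.44 and 4.43. KRT14, TRP63, WNT6, KREMEN2, HOXC9, LOC548597 and 4631405K08RIK were undetected on both -GFs arrays. Their differences start from background and are not exact sizes.

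Among the falls the difference was -2.81 for CBLN4, -1.95 for CBLN1, -2.43 for GSX1 and -2.77 for SLC32A1. It was -2.43 for MAPT, -2.53 for STMN4, -2.07 for A2BP1, -2.12 for SV2A and -2.21 for SEZ6L2. PPP1R1B, a regulator of protein phosphatase in neurons, differed by -2.30 and EEF1A2, the elongation factor of neurons and muscle, by -2.78. TMEM130 differed by -2.83 and 1 RIKEN transcript among the largest falls by -2.49. PPP1R1B, SEZ6L2 and SV2A were undetected on both BMP4 arrays, so their differences end at background and are not exact sizes.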

How the results depend on the processing

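Of 99 called genes named by the rule, 32 kept their call under every alternative. The 556 calls became 282 at an adjusted p of 0.05, 854 with median scaling, 358 in a fit of the 4 arrays, 870 in a fit of all 16, 318 with detection required in both groups, 282 without a filter on dim probes, and 102 to 547 with 1 array left out. Under a replicate block, which uses label numbers that did not pair the arrays, 258 genes were called, against FGF2 11 in place of 214 and between cultures 764 in place of 628. The 214 calls against FGF2 were 494 with median scaling and 39 to 187 with 1 array left out, and the 0 calls in PA6 cells were 2 with median scaling and 0 to 5. Arrays within a run of neighbouring columns in the file deviated together in pairs with an FGF2 array (0.161 to 0.283). The pair of -GFs replicate 2 and BMP4 replicate 2 shares a run too and correlated at 0.098, as replicate 1 of both groups did. With these runs as a block, chosen after seeing the data, 596 genes were called (308 higher, 288 lower), of which 385 were among the 556, and 560 against FGF2. Of the 99 called genes named by the rule, 81 kept their call under this block and 18 lost it. The calls of list members went from 3 to 0 for BMP targets, 4 to 2 for pluripotency, 3 to 1 for neural crest and 10 to 7 for germline genes. They went from 2 to 1 for WNT antagonist, GABA neuron and trophoblast genes and 3 to 2 for endothelial genes. Rises of BMP ligand and of retinoic acid genes went from 1 to 0. Some lists gained calls, such as epithelial junction genes, from 12 to 14. The 628 differences between cultures ranged from 397 to 605 with 1 array left out. Without the filter on dim probes another probe stood for PPP1R1B and ZIC4 and the direction turned, to 0.42 and -0.53. The cause of the other shifts was not tested. The 113 rises from undetected levels entered through the BMP4 arrays alone, which fixed their direction.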
